A study of Mus musculus with 199 samples.

Results

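KP1 is a mouse small-cell lung cancer line whose labels give the genotype Rb1-/-Trp53-/-, and it was grown as colonies in the livers of 2 kinds of host. Of the 199 RNA-seq libraries of the series, the 31 titled as 10-cell samples of F1 liver colonies were compared with the 33 titled as 10-cell samples of nude liver colonies. F1 mice are the immunocompetent host of the study design and nude mice the immunocompromised one. Each library holds about 10 cells cut by laser capture microdissection from 8-µm cryosections, and all 64 libraries carry the same tumour genotype. Pool-and-split controls, 24 from F1 and 35 from nude colonies, and 28 KP1 spheroid libraries of 10 cells were used only beside them. The labels name neither the parental strains of the F1 hosts nor the number of animals, so host strain and immune competence cannot be told apart. P-values measure the spread between captures of 10 cells, which may in part be technical. Those of the pools measure the spread between pool-and-split libraries, which may hold differences between pools beside technical ones.

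Small-cell lung cancer is a fast-dividing neuroendocrine tumour in which loss of the RB and p53 proteins removes brakes on E2F-driven cell-cycle genes. Its cells commonly present little MHC class I, the surface complex that shows peptides to CD8 T cells, and interferon from lymphocytes is the usual signal that raises it. Nude mice lack a thymus and so mature T cells, but keep NK cells, macrophages and neutrophils. The immune, interferon, proliferation and cytoskeletal genes were therefore read by host.

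Gene totals ran from 1646400 to 5432860 (median 4587300) in F1 libraries and from 718208 to 4239790 (median 2792420) in nude libraries. The neuroendocrine marker list summed to a median of 3196 CPM (read counts scaled to one common library total) in F1 and 2241 CPM in nude. Chga, the granule protein chromogranin A, was present in every library, at 15.1 to 1162 CPM (median 187) in F1 and 9.75 to 1628 CPM (median 265) in nude. The neuroendocrine markers Syp and Dll3 were at a median of 0 CPM in F1. Rb1 had a median of 4.81 CPM in F1 and 13.2 in nude, and Trp53 1.46 and 2.02. Neither passed the test between hosts (edgeR adjusted p = 0.381 and 0.86), and reads outside the deleted exons cannot check the deletions. A pseudogene, Rpl19-ps11, divided the F1 libraries into 26 at 177 to 1835 CPM and 5 at 47.1 to 85.5 CPM, while nude libraries held 54.7 to 218 CPM. The 5 are the libraries numbered 29 to 33 in the titles, the highest F1 numbers, and no label says what sets them apart. F1 pools divided in the same way: numbers 21 to 25 held 44.4 to 75.5 CPM and the others 175 to 1865 CPM. Reads in 12 gene models that resemble satellite repeats, such as Gm10800, separated the hosts further: their summed level was 0 to 472 CPM (median 1.88) in F1 and 3.89 to 4362 CPM (median 241) in nude. Pools repeated that order, with medians of 17.5 CPM in F1 and 880 CPM in nude.

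Among 6887 protein-coding genes tested, 735 (10.7%) were higher and 528 (7.67%) lower in F1 than in nude colonies by edgeR's quasi-likelihood test at an adjusted p under 0.05, 1263 (18.3%) in all. The genes higher in F1 were led by ubiquitin, tubulin, histone-variant and ribosomal genes of high level. Those lower in F1 were led by genes of low median level that were high in a subset of nude libraries. Of the called genes, 626 and 502 differed at least 2-fold. For no gene did the ranges of the 2 hosts fail to overlap, counting all 31 and 33 libraries. The split by direction depended on scaling. The default TMM factors had a median of 0.896 in F1 and 1.20 in nude and put the median log2 fold change of all protein-coding genes at 0.25. Scaling by library size only gave 229 higher and 813 lower (median -0.16), RLE factors 620 and 645 (median 0.16), DESeq2 848 and 841 (median 0.14) and limma-voom 551 and 1112 (median -0.28). List medians are to be read against this 0.25, and counts of called members against the shares of 10.7% and 7.67%.

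In the pool-and-split controls, 5838 protein-coding genes were tested, of which 462 (7.91%) were higher and 211 (3.61%) lower in F1. Of the genes tested in both library types, 271 were called in both, and 262 of these had the same direction, 180 higher and 82 lower in F1. The 262 made up 23.5% of the 10-cell calls and 41.1% of the pool calls among genes tested in both. The titles do not say how many pools were split. Haemoglobin genes summed to 1.01 to 20603 CPM over the F1 pools and 171 to 9355 CPM over the nude pools. Pools come from the same kind of colonies, and their adjusted p-values do not measure the spread between single captures. A call repeated there is therefore not independent support.

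Ubb, a polyubiquitin gene that is also induced by stress, had the smallest adjusted p. It lies on GRCm38 at chr11:62551171-62553213. Its level ran from 536 to 5695 CPM (median 2368) in F1 and from 128 to 1606 CPM (median 751) in nude. The ranges overlapped, yet 30 of 31 F1 libraries were above the nude median. The log2 fold change was 2.31 (SE 0.22, edgeR adjusted p = 8.61e-13), and 2.65 in pools (adjusted p = 2.39e-07).

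Tubb5, the class I beta-tubulin of dividing cells (chr17:35833921-35838306), ran from 2021 to 8340 CPM (median 3568) in F1 and from 236 to 3401 CPM (median 1574) in nude. All 31 F1 libraries exceeded the nude median, although the upper nude libraries lay within the F1 range. The log2 fold change was 1.96 (SE 0.20, edgeR adjusted p = 7.45e-12). H2afz, which encodes the histone variant H2A.Z (chr3:137864487-137866922), ran from 1334 to 4374 CPM (median 2383) in F1 and from 36.1 to 2432 CPM (median 1194) in nude. Again all 31 F1 libraries were above the nude median, and the log2 fold change was 1.74 (SE 0.19, edgeR adjusted p = 6.94e-11). Stmn1, the microtubule-destabilising protein stathmin (chr4:134468320-134473843), ran from 1456 to 12253 CPM (median 4343) in F1 and from 360 to 4617 CPM (median 2232) in nude. For Stmn1, 29 of 31 F1 libraries passed the nude median, with a log2 fold change of 1.53 (SE 0.18, edgeR adjusted p = 4.7e-10).

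**Figure D1:**
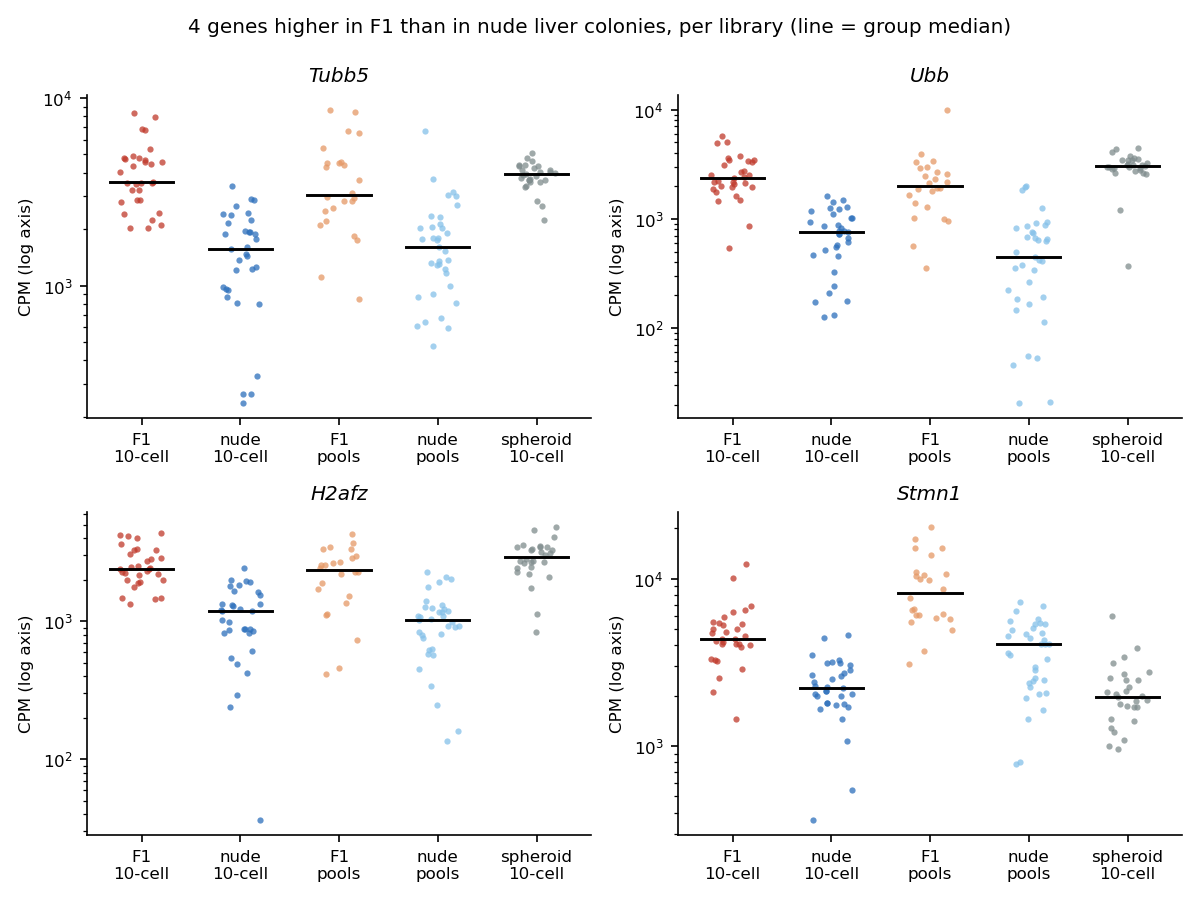
Level in CPM (log axis) of Tubb5, Ubb, H2afz and Stmn1 in each library of the F1 and nude 10-cell groups, the pools of both hosts and the spheroid 10-cell group; points are libraries and lines are group medians. F1 libraries lie above the nude median in at least 29 of 31 libraries for each gene, and the pools show the same order of hosts.

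Culture gave a reference for the same line. Spheroid means were 3866 CPM for Tubb5, 3055 for Ubb and 2915 for H2afz, nearer the F1 than the nude medians, a difference that was not tested. Stmn1 differed, with a spheroid mean of 2175 CPM, close to the nude median.

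The other 8 lead genes higher in F1 were Gm8797 (a ubiquitin-like gene model), Rps14, Rps27a and Rpl23a (ribosomal proteins, Rps27a being fused to ubiquitin), Ndufs5 (a subunit of mitochondrial complex I), Tuba1a and Tuba1b (alpha-tubulins) and Rab3gap1 (a regulator of RAB3). Over all 12 the log2 fold changes ran from 1.32 to 2.31. Tuba1a, for example, ran from 1012 to 8120 CPM (median 2176) in F1 and from 29.7 to 2625 CPM (median 950) in nude, a log2 fold change of 1.90 (SE 0.24, edgeR adjusted p = 9.11e-09). At least 28 of 31 F1 libraries were above the nude median for each gene. All 12 were also called higher in pools, under library-size scaling, under limma-voom and in the libraries with a satellite-like sum under 100 CPM. With that sum as a covariate 10 remained called, without Ndufs5 and Rpl23a. Against the 5 F1 libraries of low Rpl19-ps11 alone, 4 were called and all 12 were positive. Ubiquitin, tubulin and ribosomal protein genes have near-identical copies and pseudogenes, so how the authors' counting divided shared reads between copies is uncertain.

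Genes lower in F1 were led by Fgd4 (chr16:16416917-16600549), an exchange factor that activates the GTPase CDC42. It ran from 1.35 to 112 CPM (median 20.7) in F1 and from 15.0 to 2907 CPM (median 205) in nude. No F1 library reached the nude median, but the lower nude libraries lay within the F1 range. The log2 fold change was -3.82 (SE 0.52, edgeR adjusted p = 6.29e-08), against -0.89 in pools (adjusted p = 0.148). 9930111J21Rik2, an interferon-inducible GTPase-type gene model (chr11:49015874-49051242), ran from 0.627 to 64.9 CPM (median 7.37) in F1 and from 5.04 to 984 CPM (median 92.8) in nude. Its log2 fold change was -3.86 (SE 0.53, edgeR adjusted p = 6.94e-08), and -1.04 in pools (adjusted p = 0.168). Dpp10, a potassium-channel accessory protein, ran from 0 to 43.6 CPM (median 5.36) in F1 and from 2.62 to 1516 CPM (median 67.5) in nude. High values were limited to part of the nude libraries here too, with a log2 fold change of -4.23 (SE 0.61, edgeR adjusted p = 2.47e-07).

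Sox4, a transcription factor of progenitor cells, reached 3647 CPM in 1 nude library while its nude median was 18.5 CPM. In F1 it ran from 0 to 25.5 CPM (median 1.91), and the log2 fold change was -4.88 (edgeR adjusted p = 2.35e-07). The remaining 8 were Zdhhc21, Plekha3, Hsd3b2, Washc4, Nom1, Zan, Trim12a and Mmp12. Over all 12 the log2 fold changes ran from -2.79 to -4.94, and at least 29 of 31 F1 libraries were below the nude median. Pools called 0 of the 12, though all 12 kept the sign, at -1.57 to -0.29 (lowest edgeR adjusted p = 0.0621).

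These 12 genes moved with the satellite-like level. Fgd4 had a median of 26.0 CPM in the 11 nude libraries with a satellite-like sum under 100 CPM and 253 CPM in the 22 others, against 20.7 CPM in F1. Dpp10 had 12.1 and 93.0 CPM in the same nude groups, and 5.36 in F1. For 9930111J21Rik2 the medians were 21.2 and 97.0 CPM, and 7.37 in F1. With the satellite-like sum as a covariate, 0 of the 12 were called (lowest edgeR adjusted p = 0.0525), and 10 kept their sign, Zdhhc21 and Trim12a turning to 0.29 and 0.85. That sum itself differs by host, so this fit cannot tell host from satellite-like level. Among libraries under 100 CPM alone, 1 was called, Washc4 (edgeR adjusted p = 0.0218), and the 11 tested there all kept their sign, at -3.05 to -0.57. Some of the 12 stayed well above F1 in nude libraries under 100 CPM: Sox4 had a median of 15.5 CPM there and 1.91 CPM in F1. Washc4 had 8.19 and 0.776 CPM, and Plekha3 6.16 and 0.818 CPM.

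**Figure D2:**
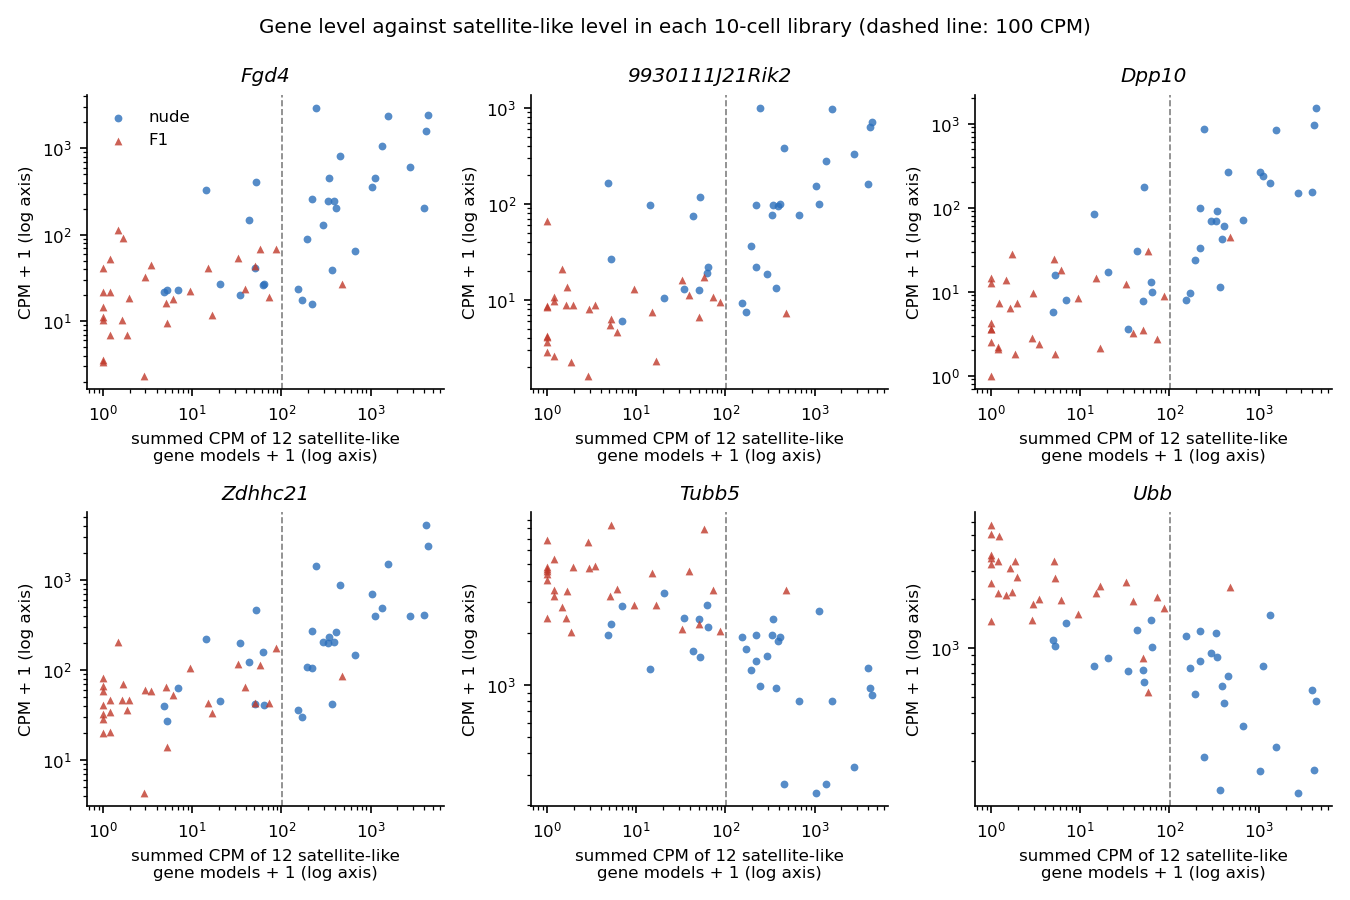
CPM + 1 of 6 genes (log axis) against the summed CPM + 1 of 12 satellite-like gene models (log axis) in each 10-cell library, with F1 as triangles, nude as circles and a dashed line at 100 CPM. Fgd4, 9930111J21Rik2, Dpp10 and Zdhhc21 are high mainly in nude libraries right of the line, while Tubb5 and Ubb are higher in F1 than in nude libraries left of it.

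For 4 lead genes higher in F1, nude medians lay below F1 at both low and high satellite-like levels. Tubb5 had medians of 3568 CPM in F1, 2240 in nude libraries under 100 CPM and 1231 in the others. Ubb had 2368, 1019 and 567 CPM, and H2afz 2383, 1234 and 880 CPM. Stmn1 did not follow the division, at 4343, 2139 and 2236 CPM. This order did not hold for every called gene: Mcm5, Hspa8, Hmgn1, Actg1, Psme1, Psmb8, Epcam, Lmnb1, Cdkn2c, Btg2 and Ifitm2, for example, had a higher median in nude libraries under 100 CPM than in F1. What the satellite-like reads come from was not tested.

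Over the whole comparison, 97 genes were higher and 8 lower with the satellite-like covariate, and 64 and 11 among libraries under 100 CPM. The satellite-like sum differs by host, so a call lost with the covariate cannot tell host from satellite-like level. The fit under 100 CPM kept 30 F1 and 11 nude libraries, so calls may also be lost there through fewer libraries. The 5 F1 libraries of low Rpl19-ps11 against all nude libraries gave 151 and 65. These totals were out of 6887, 8507 and 10417 protein-coding genes tested, in the order given. Counts of list members in these fits are to be read against them. Those under library-size scaling are to be read against 229 and 813 of 6887, and those in pools against 7.91% and 3.61%. In the lists that follow, the satellite fit is the one with the covariate, the low-satellite fit the one under 100 CPM, and the low Rpl19-ps11 fit the one with those 5 libraries.

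A total of 21 gene lists with 630 genes described the programmes. By count, the mitosis, tubulin, histone and actin lists had the most calls higher in F1, and no list had more than 4 calls lower. These lists differ in size. By share of tested members, erythrocyte (80% of 5), stress (41.7% of 12) and mitosis genes (38% of 50) led, and actin genes had 19.6%. Immune cell markers were mostly under the low-count filter in both hosts.

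**Figure D3:**
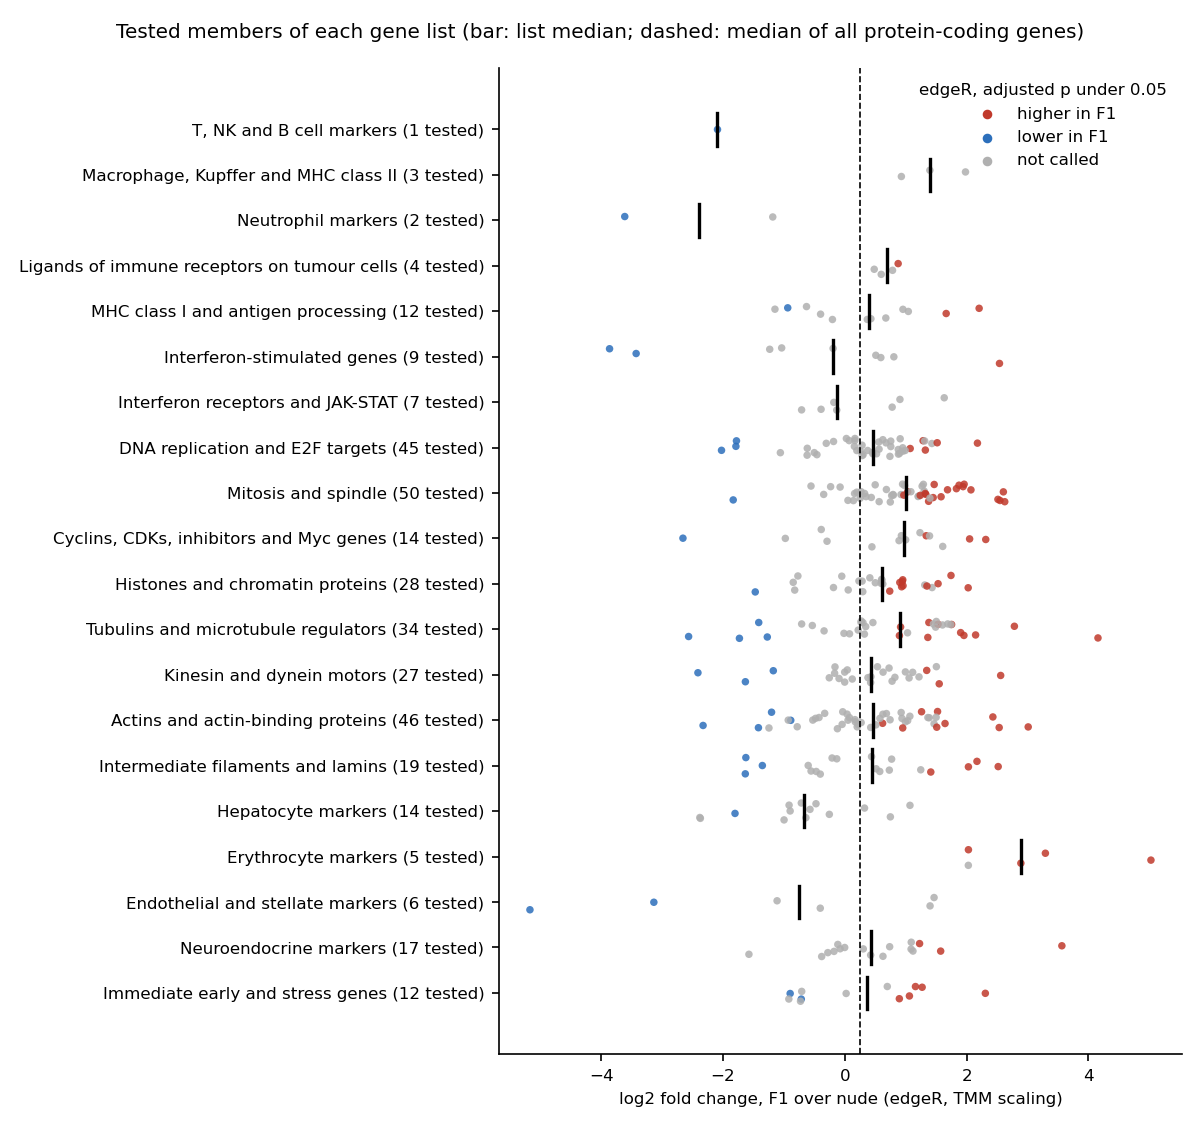
Log2 fold change of F1 over nude (edgeR, TMM scaling) for each tested member of 20 gene lists; red points were called higher in F1, blue lower and grey not called, bars are list medians and the dashed line is the median of all protein-coding genes, 0.25. The mitosis list has its median at 1.01 with 19 red points, while the interferon-stimulated list has its median at -0.19 with 1 red and 2 blue.

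Lymphocyte markers were close to absent in both hosts. Of 29 T, NK and B cell markers, 1 passed the filter. Their summed level was 0.502 to 222 CPM (median 5.74) in F1 and 1.18 to 166 CPM (median 20.2) in nude, with a spheroid median of 11.2 CPM in culture, where no lymphocytes are. Cd3e, the T-cell receptor chain that defines T cells, had 0 counts in F1, which allows up to 0.0221 CPM over the group, and 1 count in nude. Ncr1 of NK cells had 0 counts in both hosts, which in nude allows up to 0.0329 CPM. These genes and the other markers given below by their share of libraries were named after their values were seen. Floors cover counting error only. In libraries of about 10 cells, fewer cells of a type and less RNA per cell cannot be told apart.

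Cd8b1, a chain of the CD8 co-receptor, was the tested member. It ran from 0 to 11.2 CPM (median 1.07) in F1 and from 0 to 137 CPM (median 3.33) in nude, lower in the immunocompetent host (log2 fold change -2.09, edgeR adjusted p = 0.0145). The pools gave -0.26 (adjusted p = 0.803), and the sign turned to 1.22 with the satellite-like covariate. The call was kept under RLE and library-size scaling and DESeq2. It was lost under limma-voom (-1.45), the replicate block (-1.32) and the hepatocyte covariate (-2.14), and without the shallowest nude libraries (-0.51).

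Macrophage, Kupffer cell and MHC class II markers were the most abundant of the 3 immune cell lists, yet 3 of 26 were tested and 0 called. With the number of detected genes as a covariate 2 of the 3 were called higher (median 2.66), and with the spike-in share 1. Their sum was 1.16 to 960 CPM (median 147) in F1 and 3.77 to 430 CPM (median 95.2) in nude, against a spheroid median of 14.4 CPM. In nude libraries the median sum was 188 CPM under a satellite-like level of 100 CPM and 67.9 CPM above it. Cd74, the MHC class II invariant chain, had counts in 14 of 31 F1 libraries and 20 of 33 nude libraries, reaching 449 and 227 CPM. Its log2 fold change of 1.98 did not pass (edgeR adjusted p = 0.118).

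Csf1r, the macrophage growth factor receptor, ran from 0 to 159 CPM (median 5.80) in F1 and from 0 to 160 CPM (median 0.958) in nude (log2 fold change 0.93, edgeR adjusted p = 0.43). H2-Ab1, an MHC class II chain, averaged 29.9 CPM in F1 and 3.93 CPM in nude and had counts in 12 of 31 and 13 of 33 libraries, too few to test. Clec4f, which marks Kupffer cells, had 0 counts in F1 and 738 counts over 11 of 33 nude libraries. The pan-leukocyte gene Ptprc had counts in 7 of 31 F1 and 5 of 33 nude libraries. Macrophage transcripts were thus patchy between captures in both hosts.

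Neutrophil markers were lower still, with medians of 5.38 CPM in F1 and 15.1 CPM in nude and 2 of 13 tested. Cxcr2, the chemokine receptor that guides neutrophils, ran from 0 to 6.03 CPM (median 1.16) in F1 and from 0.619 to 267 CPM (median 10.8) in nude. It was called lower in F1 (log2 fold change -3.61, edgeR adjusted p = 1.7e-05), and not in pools (-0.51, adjusted p = 0.674). The call was also lost in the satellite (-0.20), low-satellite (-0.73) and low Rpl19-ps11 (-3.36) fits and without the shallowest nude libraries (-1.49). Its nude median was 1.84 CPM under a satellite-like level of 100 CPM and 13.4 CPM above it.

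Among 22 genes for ligands by which tumour cells meet immune receptors, 4 were tested. Of these 1 was called, higher in F1 (25%, beside 10.7% of all genes). Mif, a cytokine that binds CD74 on macrophages, ran from 138 to 953 CPM (median 487) in F1 and from 8.35 to 816 CPM (median 305) in nude. It was higher in F1 (log2 fold change 0.88, SE 0.25, edgeR adjusted p = 0.00773), and in pools (1.22, adjusted p = 0.0153). The call was lost, with the sign kept, under library-size scaling (0.43), the hepatocyte covariate (0.74), the satellite fit (0.43), the low-satellite fit (0.54) and the low Rpl19-ps11 fit (0.33). Cd24a, a ligand for inhibitory Siglec receptors, missed the threshold (0.78, edgeR adjusted p = 0.0514). Cd274, which encodes the T-cell inhibitor PD-L1, had counts in 3 of 31 F1 and 21 of 33 nude libraries.

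Of 12 MHC class I and antigen-processing genes tested among 18 listed, 2 were higher (16.7%, beside 10.7% of all genes) and 1 lower (8.33%, beside 7.67%) in F1, with a median log2 fold change of 0.40 beside 0.25 for all genes. Their sum was 242 to 5338 CPM (median 846) in F1 and 107 to 2358 CPM (median 979) in nude, with 852 CPM in spheroids. Under library-size scaling 0 were higher, 1 lower and the median was 0.05. The satellite fit called 2 higher and 0 lower, and the low-satellite and low Rpl19-ps11 fits 0 in either direction. Limma-voom and DESeq2 each called 0 higher and 2 lower, and the replicate block 0 and 0.

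The presenting chains themselves were low and uncalled. B2m, the light chain shared by class I molecules, ran from 0 to 332 CPM (median 6.02) in F1 and from 0 to 155 CPM (median 5.49) in nude (log2 fold change 1.04, edgeR adjusted p = 0.29). H2-K1, a class I heavy chain, ran from 0 to 975 CPM (median 46.1) in F1 and from 0 to 1952 CPM (median 32.5) in nude (0.43, edgeR adjusted p = 0.695). H2-D1, the other classical heavy chain measured, gave 0.95 (edgeR adjusted p = 0.306) in 10-cell libraries and 2.59 (adjusted p = 0.0208) in pools. Heavy-chain genes are alike in sequence, so reads may be shared between them.

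Psme1, a proteasome activator subunit induced by interferon gamma, ran from 15.1 to 3515 CPM (median 163) in F1 and from 0 to 739 CPM (median 153) in nude. Only 16 of 31 F1 libraries were above the nude median, and the call (log2 fold change 1.66, SE 0.43, edgeR adjusted p = 0.00282) went with high values in part of the F1 libraries. Psmb8, an immunoproteasome subunit, ran from 0 to 1680 CPM (median 8.87) in F1 and from 0 to 489 CPM (median 17.1) in nude. Its call (2.21, SE 0.73, edgeR adjusted p = 0.025) went against the medians, and the sign turned to -0.88 under limma-voom and -4.08 with the 5 F1 libraries of low Rpl19-ps11. Calr, the chaperone calreticulin that helps load class I, ran from 0.274 to 217 CPM (median 83.3) in F1 and from 27.8 to 409 CPM (median 212) in nude. It was lower in F1 in both library types, at -0.94 (edgeR adjusted p = 0.00582) and -1.48 in pools (adjusted p = 0.00229), with 30 of 31 F1 libraries below the nude median.

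Interferon-stimulated genes were mostly under the filter or not called. Of 59 listed, 9 were tested, 1 was higher (11.1%, beside 10.7% of all genes) and 2 lower (22.2%, beside 7.67%), with a median log2 fold change of -0.19 beside 0.25. Pools called 0 of 7 in either direction (median -0.49), and the satellite, low-satellite and low Rpl19-ps11 fits called 0 of the tested 10-cell members. The summed level was 62.1 to 891 CPM (median 329) in F1, 107 to 1956 CPM (median 391) in nude and had a median of 249 CPM in spheroids.

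Ddx58, the RNA sensor RIG-I, ran from 0 to 23.5 CPM (median 1.74) in F1 and from 0.178 to 886 CPM (median 4.44) in nude (log2 fold change -3.43, SE 0.70, edgeR adjusted p = 0.000157). The medians differed by little beside the highest nude value, and pools gave -0.49 (adjusted p = 0.555). The second lower gene was 9930111J21Rik2. Ifi27 ran from 0 to 747 CPM (median 72.3) in F1 and from 1.39 to 584 CPM (median 82.7) in nude (0.80, edgeR adjusted p = 0.25). The common sentinel genes Isg15, Ifit1 and Irf7 had counts in 3, 1 and 2 of 31 F1 libraries and in 10, 3 and 11 of 33 nude libraries.

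Ifitm2, a membrane protein that restricts viral entry, was the 1 interferon-stimulated gene higher in F1. It ran from 0 to 424 CPM (median 2.77) in F1 and from 0 to 83.8 CPM (median 0.907) in nude, with log2 fold change 2.54 (SE 0.80, edgeR adjusted p = 0.017). It was under the filter in pools, and spheroids averaged 52.5 CPM without any host. Its promoter is shown because it holds the interferon-response letters. The 100 bases before its start lie on the minus strand at chr7:140955962-140956061 of GRCm38.p6 (RefSeq), with GAAANNGAAA in capitals.
Ifitm2: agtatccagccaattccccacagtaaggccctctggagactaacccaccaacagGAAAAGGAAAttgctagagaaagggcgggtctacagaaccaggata
On either strand of the window from 250 bases before to 50 after each start, GAAANNGAAA was found in 26 of 43 interferon-stimulated genes with a window (60.5%), against 3.32% of tested protein-coding genes and 3.99% of 27025 genes. That share covers the 43 listed genes with a window, while the list median of -0.19 covers only the 9 members tested. Whether members with the motif moved by host was not tested. A match of letters is a description and not a binding site.

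Receptors and JAK-STAT genes, which take up the interferon signal, gave 0 calls among 7 tested of 16 listed (median -0.13). Jak1, the kinase of all interferon receptors, had 0.90 (edgeR adjusted p = 0.317), and 2.64 in pools (adjusted p = 0.0401). Stat3, which carries interleukin-6 signals, had -0.13 (edgeR adjusted p = 0.895).

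**Figure D4:**
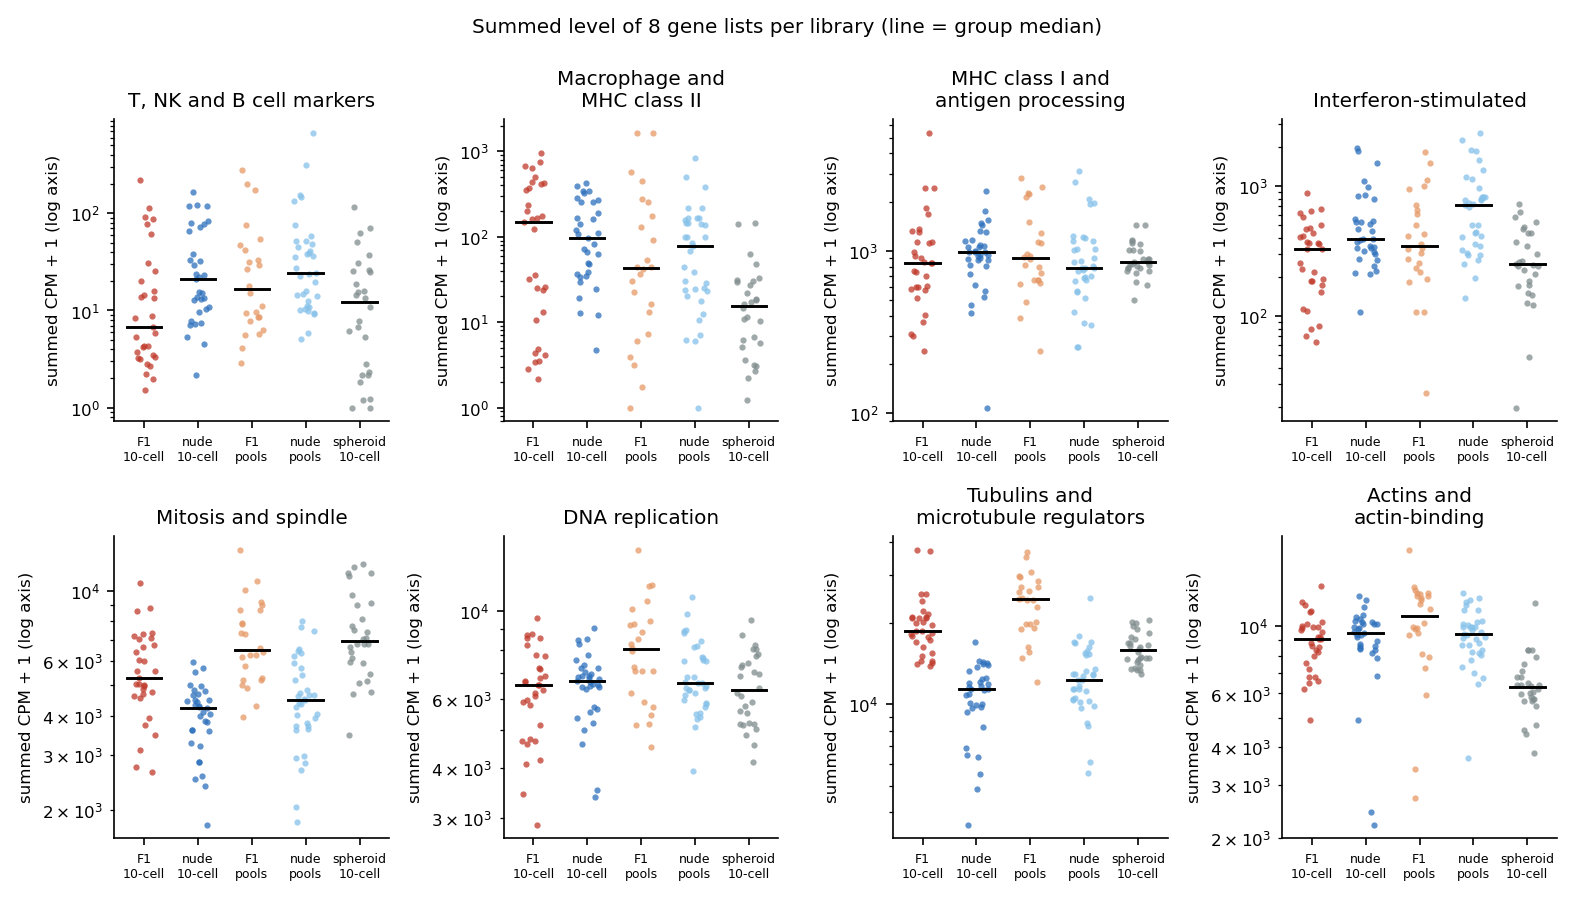
Summed CPM + 1 (log axis) of 8 gene lists in each library, by group; points are libraries and lines are group medians. Tubulin and mitosis sums have higher medians in F1 than in nude (18748 and 11399 CPM, 5290 and 4226 CPM). Sums of mitosis, interferon-stimulated, MHC class I, DNA replication and actin genes overlap broadly between hosts.

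Proliferation genes were read by phase, beginning with replication. Of 45 DNA replication and E2F target genes tested, 5 were higher (11.1%, beside 10.7% of all genes) and 3 lower (6.67%, beside 7.67%) in F1, with a median log2 fold change of 0.46 beside 0.25. These shares are near the background, so the members that follow are described as single genes and not as a change of the list. The summed level was 2880 to 9623 CPM (median 6504) in F1 and 3383 to 9078 CPM (median 6670) in nude. Under library-size scaling 1 was higher, 6 were lower and the median was 0.06, and with the satellite-like covariate 1 was higher and 0 lower. The low-satellite and low Rpl19-ps11 fits called 0 in either direction.

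Rrm1, the large subunit of the enzyme that makes deoxynucleotides, ran from 0.822 to 1547 CPM (median 256) in F1 and from 2.55 to 660 CPM (median 119) in nude (log2 fold change 1.52, edgeR adjusted p = 0.00182), and 3.24 in pools (adjusted p = 0.000343). Dut, which keeps uracil out of DNA, ran from 15.6 to 849 CPM (median 480) in F1 and from 0 to 675 CPM (median 199) in nude (1.32, edgeR adjusted p = 0.00339). Mcm5, part of the replicative helicase, ran from 13.5 to 707 CPM (median 181) in F1 and from 3.49 to 646 CPM (median 93.0) in nude (1.07, edgeR adjusted p = 0.0277). The sign of Mcm5 turned with the satellite-like covariate. The helicase subunit Mcm2 and the clamp loader Rfc4 were called at 1.28 (edgeR adjusted p = 0.0379) and 2.18 (edgeR adjusted p = 0.00347). Mcm6 missed the threshold (0.68, edgeR adjusted p = 0.0509).

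Lower in F1 was Ccne2, the cyclin E2 of S-phase entry (log2 fold change -1.78, edgeR adjusted p = 0.0429), and also Uhrf1. Uhrf1, which maintains DNA methylation at replication, ran from 0 to 108 CPM (median 2.88) in F1 and from 0 to 632 CPM (median 7.34) in nude (-1.79, edgeR adjusted p = 0.0243). In pools Uhrf1 was called in the opposite direction (2.43, adjusted p = 0.0158), 1 of 9 genes to do so. Its sign also turned with the satellite-like covariate, to 0.21.

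Mitosis and spindle genes had the most calls of the proliferation lists. Of 50 tested among 52 listed, 19 were higher, 1 lower and 30 not called, against backgrounds of 10.7% and 7.67%. The median log2 fold change was 1.01 beside 0.25, 45 of 50 members were positive and 40 lay above the all-gene median. The sum ran from 2658 to 10614 CPM (median 5290) in F1 and from 1801 to 5919 CPM (median 4226) in nude, and was 6919 CPM in spheroids. The list median stayed 0.46 to 1.41 above the all-gene median over 19 alternatives. Calls were fewer in some fits, in which calls higher in F1 were fewer over all genes too. Library-size scaling gave 6 higher and 1 lower (229 and 813 of all 6887 genes). The satellite-like covariate gave 1 and 0 (97 and 8 of 6887). Libraries under 100 CPM of satellite-like reads gave 0 and 0 (64 and 11 of 8507). The 5 F1 libraries of low Rpl19-ps11 gave 1 and 0 (151 and 65 of 10417). Pools called 6 of 45 higher and 0 lower, beside 7.91% and 3.61% of all genes. Their median was 1.32, and these 6 were among the 19.

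Kif22, a kinesin that moves chromosome arms, ran from 0.548 to 566 CPM (median 98.1) in F1 and from 0 to 133 CPM (median 16.9) in nude (log2 fold change 2.51, SE 0.47, edgeR adjusted p = 4.87e-05), and 2.90 in pools (adjusted p = 0.00169). Birc5, the survivin subunit of the chromosomal passenger complex, ran from 4.33 to 583 CPM (median 143) in F1 and from 7.18 to 433 CPM (median 52.5) in nude (1.96, SE 0.40, edgeR adjusted p = 0.000163). Birc5 was the member still called with the satellite-like covariate (edgeR adjusted p = 0.012). Both genes followed the satellite-like level within nude, Birc5 with medians of 94.6 CPM under 100 CPM and 30.1 CPM above it, and Kif22 with 32.6 and 9.58 CPM.

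Ndc80, a kinetochore protein that binds microtubules, ran from 0 to 503 CPM (median 30.7) in F1 and from 0 to 101 CPM (median 3.93) in nude (log2 fold change 2.60, edgeR adjusted p = 0.00455), and 5.02 in pools (adjusted p = 0.000251). Mki67, the widely used proliferation marker Ki-67, ran from 63.0 to 4380 CPM (median 507) in F1 and from 25.1 to 1574 CPM (median 479) in nude. Its medians were nearly level, and the call (1.03, edgeR adjusted p = 0.0105) was not repeated in pools (-0.04, adjusted p = 0.961). Kif11, the motor that separates spindle poles, was the member lower in F1 (-1.83, edgeR adjusted p = 0.0171), running from 0 to 109 CPM (median 6.03) in F1 and from 0.248 to 387 CPM (median 23.5) in nude.

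Cdk1, the kinase that drives entry into mitosis, ran from 1.28 to 185 CPM (median 59.3) in F1 and from 0 to 148 CPM (median 15.5) in nude. It was above the nude median in 28 of 31 F1 libraries (log2 fold change 1.83, SE 0.51, edgeR adjusted p = 0.00604), and reached 2.51 in pools (adjusted p = 0.0536). Cdc20, which activates the anaphase-promoting complex, ran from 0.607 to 619 CPM (median 147) in F1 and from 0 to 434 CPM (median 83.0) in nude (1.45, SE 0.50, edgeR adjusted p = 0.0319), with 2.63 in pools (adjusted p = 0.00921). Their promoters are shown because late cell-cycle genes are known for paired CCAAT boxes and CHR elements. The 100 bases before each start in RefSeq lie on the minus strand of GRCm38.p6, at chr10:69352913-69353012 for Cdk1 and chr4:118437344-118437443 for Cdc20, with matches to CCAAT and to the CHR letters TTTGAA or TTCGAA on either strand in capitals.
Cdk1: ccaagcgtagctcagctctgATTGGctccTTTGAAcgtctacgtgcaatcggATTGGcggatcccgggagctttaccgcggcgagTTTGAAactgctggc
Cdc20: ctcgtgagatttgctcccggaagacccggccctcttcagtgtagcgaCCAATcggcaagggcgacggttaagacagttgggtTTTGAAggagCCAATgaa
In windows from 250 bases before to 50 after the start, 31 of 45 mitosis genes with a window held both elements (68.9%), against 6.93% of tested protein-coding genes and 8.61% of all. Both occurred in 11 of 16 list members called higher (68.8%) and in 19 of 26 not called (73.1%). The element pair thus marked the list and did not separate called from uncalled members. Among DNA replication genes the share was 17.5%.

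Other mitosis genes moved the same way. Bub3, Kif20a, Cks2, Ube2c and Cdca8 had log2 fold changes of 1.69, 2.55, 1.87, 1.58 and 0.97 (edgeR adjusted p from 0.00119 to 0.00892). Cdca8, for which values are highest among these, ran from 50.2 to 1529 CPM (median 405) in F1 and from 19.0 to 681 CPM (median 283) in nude.

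Cyclins, cyclin-dependent kinases, their inhibitors and Myc genes gave 3 higher and 1 lower of 14 tested, 21.4% and 7.14% beside 10.7% and 7.67% of all genes (median 0.96 beside 0.25). Cdk4, the D-cyclin partner that acts on RB, ran from 13.9 to 773 CPM (median 329) in F1 and from 0.989 to 824 CPM (median 125) in nude. It was higher in F1 (log2 fold change 1.34, SE 0.34, edgeR adjusted p = 0.00244) and in pools (1.61, adjusted p = 0.0366), above the nude median in 28 of 31 libraries. Its relative Cdk6 was low and moved the other way, at 0 to 23.3 CPM (median 0.230) in F1 and 0 to 105 CPM (median 6.53) in nude (-2.66, edgeR adjusted p = 0.00209). Btg2, an anti-proliferative gene, and Cdkn2c, an inhibitor of CDK4 and CDK6, were higher too, at 2.31 (edgeR adjusted p = 0.00101) and 2.05 (edgeR adjusted p = 0.0354). The satellite and low-satellite fits called 0 of the 14, with Cdk6 at 0.16 in the first, and the low Rpl19-ps11 fit 1 higher.

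Histone and chromatin genes gave 10 higher and 1 lower of 28, 35.7% and 3.57% beside 10.7% and 7.67% of all genes (median 0.61 beside 0.25), and the list sum was 11458 to 28290 CPM (median 16213) in F1 and 5124 to 16388 CPM (median 12018) in nude. Stmn1, a member of this list and of the tubulin list, is counted in both. After H2afz and Stmn1, Hmgn2, a nucleosome-binding protein, ran from 1348 to 4953 CPM (median 2266) in F1 and from 460 to 3506 CPM (median 1864) in nude (log2 fold change 0.94, edgeR adjusted p = 1.32e-05). Its relative Hmgn1 and the nuclear transport GTPase Ran gave 0.95 (edgeR adjusted p = 0.000488) and 0.93 (edgeR adjusted p = 0.00102), and the histone chaperone Anp32a was lower at -1.47 (edgeR adjusted p = 0.037). Library-size scaling left 3 higher and 2 lower, the satellite fit 3 and 0, the low-satellite fit 2 and 0 and the low Rpl19-ps11 fit 3 and 0. Pools called 5 of 27 higher, 0 lower. Poly(A) capture largely misses the replication-dependent histones, which lack poly(A) tails.

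Microtubule genes had the most calls of the cytoskeletal lists. Of 34 tubulins and microtubule regulators tested among 39 listed, 11 were higher (32.4%, beside 10.7%) and 4 lower (11.8%, beside 7.67%) in F1 (median 0.91 beside 0.25), and the sum ran from 13894 to 37243 CPM (median 18748) in F1 and from 3589 to 16988 CPM (median 11399) in nude. Spheroids had 15849 CPM, between the hosts. Calls were 8 and 5 under library-size scaling (median 0.40), 5 and 0 with the satellite-like covariate, 6 and 0 among libraries under 100 CPM, and 3 and 0 with the 5 F1 libraries of low Rpl19-ps11. Pools called 8 of 27 higher and 0 lower, all 8 among the 11. The list median was above that of all genes by 0.32 to 0.91 over 19 alternatives.

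The higher members were mainly tubulin subunits. Beside Tubb5, Tuba1a and Stmn1, Tuba1b ran from 2259 to 12389 CPM (median 3380) in F1 and from 720 to 5242 CPM (median 2483) in nude (log2 fold change 1.38, SE 0.19, edgeR adjusted p = 6.29e-08). Tubb4b ran from 206 to 3210 CPM (median 1522) in F1 and from 4.64 to 1589 CPM (median 923) in nude (1.36, SE 0.22, edgeR adjusted p = 3.18e-06). Tuba1c ran from 38.9 to 1457 CPM (median 472) in F1 and from 0 to 712 CPM (median 205) in nude (1.75, edgeR adjusted p = 0.000178). Tubb2a, a neuronal beta-tubulin, was lower in level, at 0.696 to 351 CPM (median 40.8) in F1 and 0 to 121 CPM (median 2.54) in nude (2.78, edgeR adjusted p = 0.00119). All 6 tubulins were also higher in pools, at 0.97 to 3.68, and reads shared between these near-identical genes make their separate values uncertain.

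The 4 members lower in F1 included Map1b, Map4 and Map1lc3a. Map1b, a microtubule-associated protein of neurons, ran from 0.274 to 205 CPM (median 33.9) in F1 and from 4.19 to 500 CPM (median 127) in nude (log2 fold change -1.27, edgeR adjusted p = 0.0107). Map4 and the autophagy protein Map1lc3a had -1.41 (edgeR adjusted p = 0.0349) and -1.73 (edgeR adjusted p = 0.0059). Ckap5, a microtubule polymerase, was higher by 4.16 (edgeR adjusted p = 0.000206), but its medians were 4.68 and 0.884 CPM with a highest F1 value of 843 CPM, and pools gave -0.20 (adjusted p = 0.918).

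Motors gave 3 higher and 3 lower of 27 (median 0.43 beside 0.25), 11.1% in each direction beside 10.7% and 7.67% of all genes, which is near the background. The satellite fit called 0 in either direction, the low-satellite and low Rpl19-ps11 fits 1 higher and 0 lower each, and library-size scaling 1 and 3. Dynll1, a light chain of dynein, ran from 19.5 to 1685 CPM (median 368) in F1 and from 11.0 to 628 CPM (median 188) in nude (log2 fold change 1.55, edgeR adjusted p = 0.000125), with 1.55 in pools (adjusted p = 0.0405). Another dynein light chain, Dynlrb1, had 1.34 (edgeR adjusted p = 0.00349), and the organelle motor Kif1b -2.41 (edgeR adjusted p = 0.000829).

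Of 46 actin and actin-binding genes tested, 9 were higher (19.6%, beside 10.7%) and 4 lower (8.7%, near the 7.67% of all genes), with a median of 0.47 beside 0.25, and sums overlapped, at 4914 to 13593 CPM (median 9065) in F1 and 2218 to 12612 CPM (median 9502) in nude. Library-size scaling gave 5 and 6 (median 0.05), the satellite and low Rpl19-ps11 fits 0 and 0, and the low-satellite fit 2 and 0. Tmsb10, an actin-monomer binder, ran from 172 to 833 CPM (median 325) in F1 and from 10.1 to 487 CPM (median 145) in nude, above the nude median in all 31 F1 libraries (log2 fold change 1.65, SE 0.24, edgeR adjusted p = 3.71e-07). Its relative Tmsb4x ran from 178 to 1664 CPM (median 586) in F1 and from 33.4 to 1130 CPM (median 337) in nude (1.26, edgeR adjusted p = 4.24e-05).

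Of the actins themselves, Actg1, cytoplasmic gamma-actin, ran from 527 to 6887 CPM (median 3326) in F1 and from 430 to 6253 CPM (median 3122) in nude (log2 fold change 0.62, SE 0.16, edgeR adjusted p = 0.00244), and 0.96 in pools (adjusted p = 1.69e-05). Actb, beta-actin, ran from 85.4 to 1816 CPM (median 631) in F1 and from 208 to 3445 CPM (median 1064) in nude, and was not called (-0.53, edgeR adjusted p = 0.129), while library-size scaling called it lower (-0.89, adjusted p = 0.0033). Arpc2, part of the ARP2/3 complex that branches actin filaments, ran from 8.15 to 748 CPM (median 132) in F1 and from 50.1 to 1466 CPM (median 458) in nude (-1.20, edgeR adjusted p = 0.00408), a sign lost with the satellite-like covariate (0.061). The crosslinker Actn4 and tropomyosin Tpm3 were lower at -1.42 (edgeR adjusted p = 0.0192) and -0.89 (edgeR adjusted p = 0.0265), and the profilin Pfn2 and crosslinker Flna higher at 1.52 (edgeR adjusted p = 0.0194) and 0.95 (edgeR adjusted p = 0.0122).

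Cdc42, a GTPase of cell polarity, ran from 6.58 to 593 CPM (median 151) in F1 and from 0.728 to 522 CPM (median 54.8) in nude (log2 fold change 1.39, edgeR adjusted p = 0.00483). Its activator Fgd4 was lower in F1, as given among the lead genes, so the direction differed between Cdc42 and this activator.

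Intermediate filaments and lamins gave 4 higher and 3 lower of 19, 21.1% and 15.8% beside 10.7% and 7.67% of all genes (median 0.44 beside 0.25). The satellite fit called 1 higher and 0 lower, the low-satellite fit 0 and 0, the low Rpl19-ps11 fit 1 and 1, and library-size scaling 2 and 4. Nefm, a neurofilament subunit, ran from 1.67 to 488 CPM (median 179) in F1 and from 0 to 164 CPM (median 45.6) in nude (log2 fold change 2.03, edgeR adjusted p = 7.39e-05). Krt18, a simple-epithelium keratin also made by hepatocytes, ran from 0.274 to 230 CPM (median 33.5) in F1 and from 25.1 to 1072 CPM (median 180) in nude (-1.63, edgeR adjusted p = 0.00238). The lamin Lmnb1 was called higher at 2.52 (edgeR adjusted p = 0.00412), but ran from 0 to 532 CPM (median 3.25) in F1 and from 0 to 77.9 CPM (median 3.84) in nude, so the call went with high values in part of the F1 libraries. The linker Dst was lower at -1.63 (edgeR adjusted p = 0.00635) and -2.99 in pools (adjusted p = 7.31e-05).

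Neuroendocrine genes gave 3 higher and 0 lower of 17, 17.6% and 0% beside 10.7% and 7.67% of all genes (median 0.42 beside 0.25), with the same 3 and 0 counts under library-size scaling and in the low Rpl19-ps11 fit. The satellite fit called 1 higher and the low-satellite fit 2, with 0 lower. Uchl1, a neuronal deubiquitinase, ran from 286 to 3097 CPM (median 942) in F1 and from 18.1 to 1136 CPM (median 469) in nude (log2 fold change 1.57, edgeR adjusted p = 2.85e-07). Ddc, which makes dopamine and serotonin, ran from 231 to 3311 CPM (median 1038) in F1 and from 116 to 1891 CPM (median 547) in nude (1.23, edgeR adjusted p = 4.3e-05), and 1.94 in pools (adjusted p = 2.91e-05). Ddc stayed called under all 19 alternatives, as did Ubb, Tubb5, H2afz and Stmn1, the 5 of 95 called genes named here to do so. The epithelial adhesion gene Epcam was called at 3.56 (edgeR adjusted p = 0.000184) on low medians, running from 0 to 217 CPM (median 2.01) in F1 and from 0 to 21.4 CPM (median 1.43) in nude. Chga did not pass (-0.08, edgeR adjusted p = 0.89).

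Stress genes did not move together, at 5 higher and 2 lower of 12, 41.7% and 16.7% beside 10.7% and 7.67% of all genes (median 0.36 beside 0.25). The satellite, low-satellite and low Rpl19-ps11 fits each called 1 higher and 0 lower, and library-size scaling 1 and 2. The chaperone Hspa8 was higher (log2 fold change 1.06, edgeR adjusted p = 0.000104), as in pools (0.64, adjusted p = 0.0414). Hsp90aa1, the inducible HSP90, ran from 239 to 2668 CPM (median 1345) in F1 and from 1104 to 8813 CPM (median 2572) in nude, and was lower (-0.90, edgeR adjusted p = 0.000536). Hsp90ab1, the constitutive form, had -0.71 (edgeR adjusted p = 0.0035) and 0.12 with the satellite-like covariate.

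Genes of liver and blood cells were read as markers of other cells in the captures. Hepatocyte markers summed to 4.91 to 3039 CPM (median 357) in F1 and 146 to 6793 CPM (median 1224) in nude, against 87.9 CPM in spheroids, with 0 higher and 1 lower of 14 (median -0.68 beside 0.25), the latter 7.14%, near the 7.67% of all genes. The count of lower members depended on the method, at 10 under limma-voom (median -2.61) and 5 with the replicate block (median -3.27). The satellite, low-satellite and low Rpl19-ps11 fits called 0. Alb, serum albumin, ran from 0 to 542 CPM (median 8.56) in F1 and from 0 to 1336 CPM (median 274) in nude (log2 fold change -1.80, edgeR adjusted p = 0.0341). With the hepatocyte sum as a covariate, 470 genes were higher and 266 lower. Its part in the differences above was not tested beyond that fit.

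Of 5 erythrocyte genes tested, 4 were higher in F1 (80%, beside 10.7% of all genes). The list summed to 1.18 to 32956 CPM (median 1622) in F1 and 12.5 to 3743 CPM (median 555) in nude. The list median was 2.89, but -0.078 with 0 called in the low Rpl19-ps11 fit, and the satellite and low-satellite fits called 1 each. Hbb-bs, an adult beta-globin, ran from 0 to 13490 CPM (median 622) in F1 and from 0 to 1706 CPM (median 140) in nude (log2 fold change 3.29, edgeR adjusted p = 0.000636). Hbb-bt had 5.03 (edgeR adjusted p = 0.000187), and 3.72 in pools (adjusted p = 0.012). These copies share reads, and mouse strains differ in the beta-globin copies they carry. With the haemoglobin sum as a covariate, 691 genes were higher and 558 lower.

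Endothelial and stellate markers gave 0 higher and 2 lower of 6 tested, 0% and 33.3% beside 10.7% and 7.67% of all genes. The satellite, low-satellite and low Rpl19-ps11 fits called 0 in either direction. Fcgr2b, an Fc receptor of liver sinusoidal endothelium and B cells, ran from 0 to 88.1 CPM (median 0.205) in F1 and from 0 to 1827 CPM (median 33.2) in nude (log2 fold change -5.17, edgeR adjusted p = 7.59e-06), and -2.15 in pools (adjusted p = 0.0436). Its nude median was 4.64 CPM under a satellite-like level of 100 CPM and 106 CPM above it, and the sign turned to 0.11 with the covariate. Pecam1, the endothelial junction protein CD31, had -3.14 (edgeR adjusted p = 1.17e-05).

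Of 120 called list members and lead genes tested in pools, 45 were called there too and 102 had the same sign. Among the 82 higher in F1, 41 were also called in pools, and among the 38 lower, 3 were, namely Calr, Dst and Fcgr2b, with Uhrf1 called the opposite way. Over all protein-coding genes tested in both library types the contrast was smaller, with 180 of 627 higher genes (28.7%) and 82 of 490 lower genes (16.7%) also called in pools in the same direction.

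**Figure D5:**
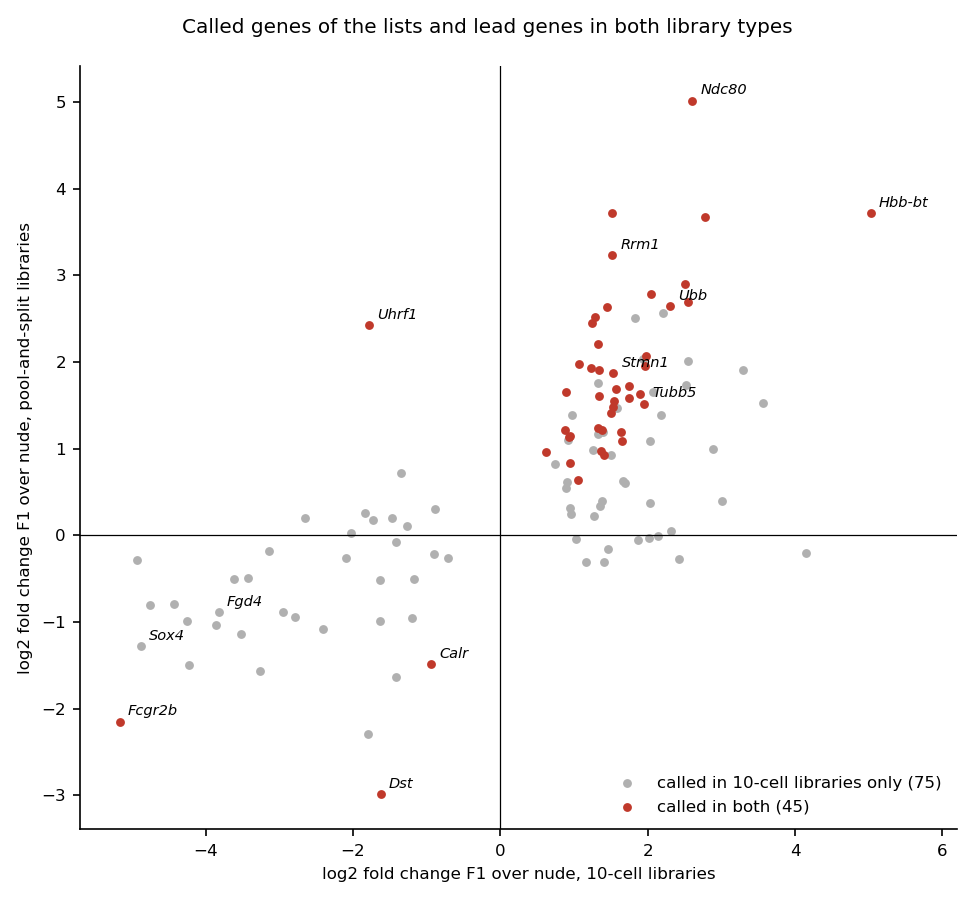
Log2 fold change of F1 over nude in pool-and-split libraries against that in 10-cell libraries for 120 called list members and lead genes; red points were called in both library types and grey points in 10-cell libraries only. The 45 red points lie mostly at upper right, while most genes lower in F1 10-cell libraries are grey and closer to 0 in pools than in 10-cell libraries.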

How the data were processed

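Poly(A) RNA from captures of about 10 cells was amplified by PCR and tagmented, per the labels' protocols. The authors deposited expected counts per gene, unscaled. RSEM, Bowtie2, GRCm38 and GRCh38.p12 are named per the submitters' processing notes, without roles. Strand use is not given in the sources used here. The table holds 31581 genes and 92 ERCC spike-ins, which were left out of library sizes. Counts were rounded and fitted with edgeR 4.0.16 in R 4.3.3 (filterByExpr, TMM, robust quasi-likelihood test) over the 64 libraries alone, with Benjamini-Hochberg adjustment over all 7064 genes tested and a threshold of 0.05. Pools were fitted the same way. CPM were computed over genes. Alternatives used limma 3.58.1, DESeq2 1.42.0, other scalings, filters, covariates, a replicate block and subsets of libraries. Satellite-like, haemoglobin and library-size-only fits were chosen after seeing the data. Lead genes were, per direction, the 12 of smallest adjusted p that changed 2-fold or more (absolute log2 value 1) and averaged 10 CPM or more in the higher host. Called list members, and the 4 of highest level per list, could also be named. Members and lists were chosen with earlier results of these data known. Fits were tested on simulated data. No pair of libraries within a host agreed within sampling noise (lowest chi-squared per degree of freedom 74.9). Molecular identifiers were not used, so the floor of 3 counts covers counting error only. Some genes and 1 list are not reported here.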

Additional observations from a re-analysis of the deposited data

How the results depend on the processing

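Counts of called genes depended on the processing. Against 1263 in all (735 higher, 528 lower in F1), fitting without a low-count filter gave 5284 (2243 and 3041), the hepatocyte covariate 736 (470 and 266), thinning every library to the lowest total 815 (354 and 461), the 5 F1 libraries of low Rpl19-ps11 216 (151 and 65) and leaving out the shallowest nude libraries 610 (408 and 202). The fits chosen after seeing the data gave 105 (97 and 8) with the satellite-like covariate, 75 (64 and 11) under 100 CPM of satellite-like reads, and 229 higher and 813 lower with library size alone. Lower calls numbered 881 with a mean of at least 5 CPM, 1112 with limma-voom and 841 with DESeq2. In pools limma-voom gave 194 higher and 571 lower. Same-numbered libraries share only a number: over 29 numbers the median correlation of deviations was 0.0013 (range -0.157 to 0.078) and 0 correlated best with their own number. The replicate block gave 821 (328 and 493) in 10-cell libraries and 157 (54 and 103) in pools. Among the 112 named genes tried under the alternatives, those called whose sign turned were, with the satellite-like covariate, Zdhhc21 (0.29), Trim12a (0.85), Cd8b1 (1.22), Mcm5 (-0.15), Uhrf1 (0.21), Cdk6 (0.16), Arpc2 (0.061), Hsp90ab1 (0.12) and Fcgr2b (0.11), and under 100 CPM Cd8b1 (0.97) and Fcgr2b (0.36). Psmb8 turned with limma-voom (-0.88), the block (-0.88) and the low Rpl19-ps11 libraries (-4.08). The cause of these shifts was not tested. Fewer libraries entered the block and subset fits. Of 29 lymphocyte markers, 28 were under the low-count filter, so a difference between hosts was not tested for them.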
